A study of Trametes pubescens and Hermanssonia centrifuga with 16 samples.

Results

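The difference between spruce and wheat straw in how the white-rot fungus Trametes pubescens (strain FBCC735) responded to temperature was measured by messenger RNA sequencing. It rests on all 8 T. pubescens libraries of a series of 16, chosen by their sample titles and gene identifiers. The series also holds 8 libraries of a second fungus, Phlebia centrifuga, not analysed here. The 4 groups, with 2 libraries each, were mycelium grown on Norway spruce sticks at 25 °C, on spruce at 15 °C, on wheat straw pieces at 25 °C and on wheat straw at 15 °C. Every group came from the same strain, and cultures held 2 g of dry substrate at 60% moisture for 21 days. The inoculum of all 4 groups came from liquid precultures kept at 25 °C, per the labels' protocols. The titles and treatment labels give the culture temperature as 15 or 25 °C, whereas the protocol text names 25 °C alone for the solid cultures; the titles were followed. Whether libraries 1 and 2 of a group were grown as separate cultures is not stated in the labels, and the spread that the p-values are based on may therefore be technical.

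White-rot fungi degrade lignin together with cellulose and hemicellulose by secreting oxidative and hydrolytic enzymes, and they switch sets of these genes with the plant material on which they grow. T. pubescens is found mainly on the wood of broad-leaved trees and is known as a laccase producer, while spruce is a softwood and wheat straw is a grass biomass rich in xylan. A temperature by substrate interaction asks whether a gene's response to warmth depends on what the fungus is growing on. It was computed for each gene as the log2 fold change of 25 against 15 °C on spruce minus the same fold change on straw. A positive value ("higher") means that the temperature effect was higher on spruce than on straw, and a negative value ("lower") that it was lower on spruce.

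The libraries held 10180387 to 13635999 raw counts over 14451 gene models, and 12223 to 12327 models had at least 1 count in a library. After a filter on low counts 11622 genes were fitted in edgeR (quasi-likelihood F test), and genes with a Benjamini-Hochberg adjusted p below 0.05 were called. Levels are given in CPM (count divided by the library total after trimmed mean of M-values, or TMM, normalization). They are not divided by gene length and are therefore compared between libraries and not between genes. Scaling factors were 0.897 and 1.016 on spruce at 25 °C, 0.820 and 0.899 on spruce at 15 °C, 1.130 and 1.101 on straw at 25 °C, and 1.115 and 1.073 on straw at 15 °C. Gene names are not paired with the models in the files, so the models are given by identifier and no function is named for them.

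The temperature effect differed between spruce and straw for 28 of 11622 genes, 0.241% of those tested. It was higher on spruce for 23 genes (0.198%) and lower for 5 (0.043%). The 23 genes had interaction log2 values of 1.85 to 3.83 with a median of 2.56, and the 5 had values of -4.81 to -2.30 with a median of -3.03; over all tested genes the median was 0.01. Over the alternative settings the number of calls ranged from 0 to 227, with 0 or 1 when a library of spruce at 15 °C or of straw was left out and 1 with RLE scaling. In the 23 genes spruce at 15 °C was the group with the lowest mean in 20 and straw at 15 °C the group with the highest mean in 20, and both held in 18. Over all tested genes these patterns were seen in 31.4%, 22.4% and 11.0%. In the 5 genes spruce at 15 °C had the highest mean in 4 (29.2% of all tested genes), and in these 4 both its libraries lay above the other 6 (9.68% of all tested genes).

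**Figure D1:**
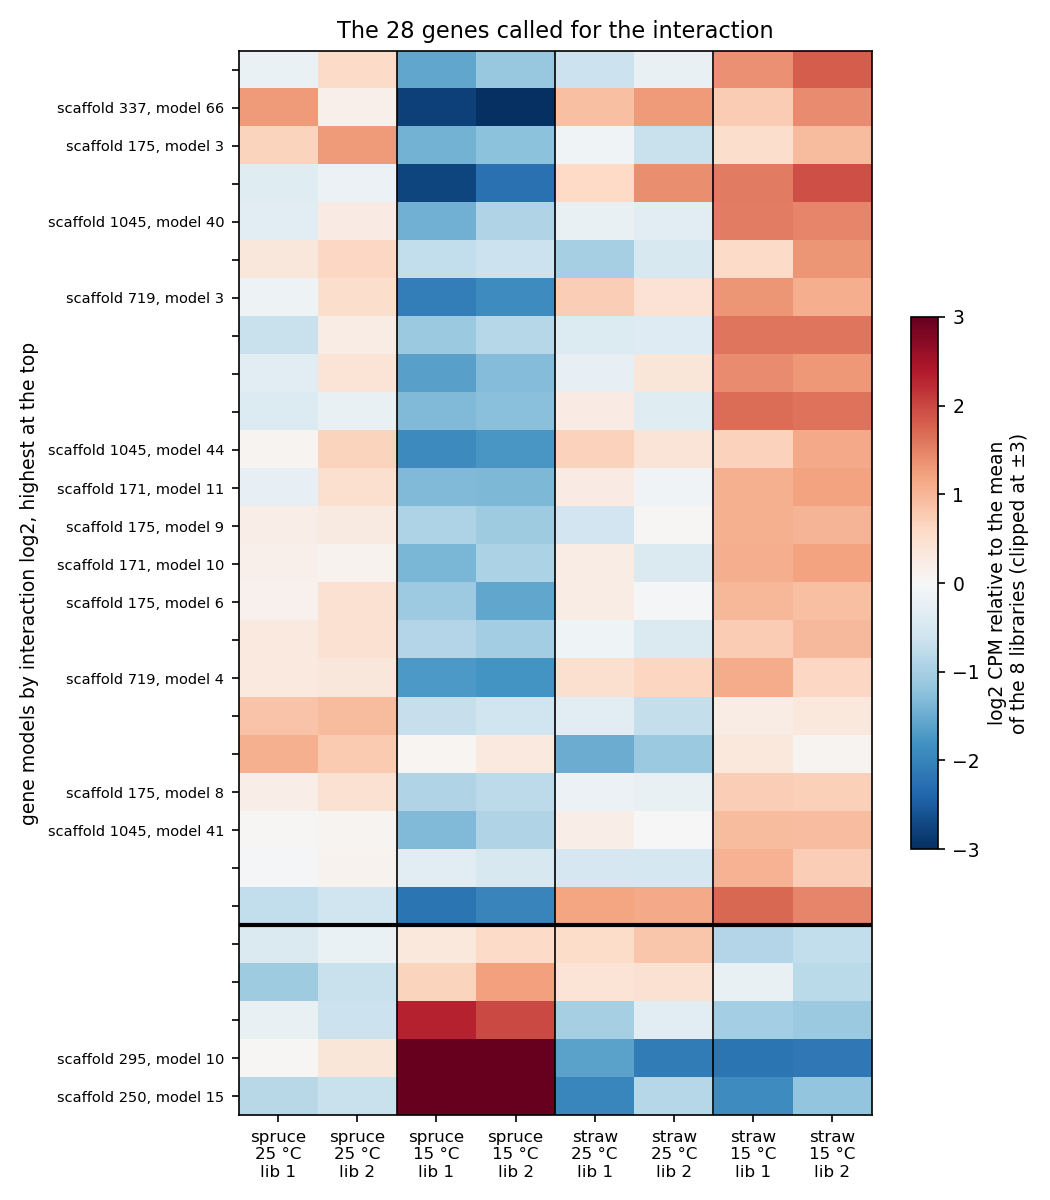
Each row is 1 of the 28 called genes and each column 1 library; colour gives log2 CPM relative to the gene's own mean over the 8 libraries. Row labels are given for the named genes and for scaffolds with 2 or more called genes. Above the black line, the 23 genes with a positive interaction are mostly lowest (blue) in both libraries of spruce at 15 °C and highest (red) in both of straw at 15 °C; below it, 4 of the 5 genes with a negative interaction are highest on spruce at 15 °C.

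The same ordering was seen in single libraries. Relative to each gene's mean over the 8 libraries, the median of the 23 genes was 0.08 and 0.41 log2 units in the libraries of spruce at 25 °C and -1.32 and -1.14 in those of spruce at 15 °C. It was -0.10 and -0.22 on straw at 25 °C and 1.06 and 1.14 on straw at 15 °C. At 25 °C the medians on the substrates lay near each other, while at 15 °C they lay on opposite sides of the gene's mean. Both libraries of spruce at 15 °C lay below the other 6 libraries in 19 of the 23 genes, against 11.4% of all tested genes. Both libraries of straw at 15 °C lay above the other 6 in 16 of the 23, against 5.08% of all tested genes. Since these genes were chosen by a test on the same libraries, the counts describe the called genes and are no further evidence. The lowest TMM factor of the 8 libraries, 0.820, was also that of a library of spruce at 15 °C. With library totals alone as the scaling, 16 of the 28 genes were called.

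The called gene with the highest positive interaction among those reaching 10 CPM was jgi|Trapub1|9285|scaffold_337.66, model 66 of scaffold 337. It had 107 and 49.1 CPM on spruce at 25 °C, 6.11 and 5.34 on spruce at 15 °C, 82.6 and 106 on straw at 25 °C, and 74.5 and 118 on straw at 15 °C. Only the libraries of spruce at 15 °C stood apart, and the other 6 overlapped across their groups. Counts behind these levels were 1309 and 534 on spruce at 25 °C and 51 and 57 on spruce at 15 °C. On spruce the gene rose at 25 °C relative to 15 °C (log2 fold change 3.77, edgeR adjusted p = 0.0146), with means of 78.1 ± 41 CPM at 25 °C and 5.72 ± 0.55 CPM at 15 °C (SD, n = 2 each). On straw the log2 fold change was -0.03. The interaction was 3.80 ± 0.55 log2 units (SE; edgeR adjusted p = 0.0424), a 13.9-fold difference between the temperature effects. The call held in 2 of the 8 fits that each left out 1 library, both without a library of spruce at 25 °C, and the value was 3.13 to 4.25 in the 8 fits.

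The next was jgi|Trapub1|7990|scaffold_175.3, model 3 of scaffold 175. Its levels were 19.0 and 28.9 CPM on spruce at 25 °C and 4.31 and 4.96 on spruce at 15 °C. They were 11.0 and 7.34 CPM on straw at 25 °C and 17.3 and 22.9 on straw at 15 °C. Warmth went with a higher level on spruce and a lower one on straw, and on neither substrate did the temperatures overlap. The rise on spruce was called (log2 fold change 2.36, edgeR adjusted p = 0.0241), and the value on straw, -1.13, was not (edgeR adjusted p = 0.323). The interaction was 3.49 ± 0.44 (SE; edgeR adjusted p = 0.0421); its call held in the same 2 of 8 fits with 1 library left out, at values of 3.16 to 3.81 over the 8. Set against straw, expression on spruce was higher at 25 °C (log2 fold change 1.38) and lower at 15 °C (-2.11), and both substrate differences were called (edgeR adjusted p = 0.0249 and 0.00311).

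Among genes with a negative interaction the lowest value belonged to jgi|Trapub1|8613|scaffold_250.15, model 15 of scaffold 250. It had 15.1 and 16.9 CPM on spruce at 25 °C, 227 and 556 on spruce at 15 °C, 6.79 and 14.8 on straw at 25 °C, and 7.14 and 11.8 on straw at 15 °C. Both libraries of spruce at 15 °C were far above the rest, although they differed from each other by more than any other pair for this gene. The gene fell at 25 °C on spruce (log2 fold change -4.61, edgeR adjusted p = 0.0146), and its value on straw was 0.20. The interaction was -4.81 ± 0.70 (SE; edgeR adjusted p = 0.0424). With 1 library left out it was -5.33 to -4.02, called in the same 2 of 8 fits.

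The gene with the lowest adjusted p was jgi|Trapub1|8912|scaffold_295.10, model 10 of scaffold 295. Levels were 30.1 and 38.3 CPM on spruce at 25 °C and 382 and 460 on spruce at 15 °C, against 9.60 and 6.77 on straw at 25 °C and 6.29 and 6.51 on straw at 15 °C. The libraries of spruce at 25 °C lay above all 4 straw libraries and below both libraries of spruce at 15 °C. At 25 °C it was lower on spruce than at 15 °C (log2 fold change -3.62, edgeR adjusted p = 0.00223). The interaction was -3.98 ± 0.36 (SE; edgeR adjusted p = 0.0163). With 1 library left out it was -4.21 to -3.71, called in 3 of 8 fits: those 2 and the fit without library 2 of straw at 25 °C. It was higher on spruce than on straw at 25 °C (log2 fold change 2.06, edgeR adjusted p = 0.00192) as well as at 15 °C (6.04, edgeR adjusted p = 7.14e-05).

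**Figure D2:**
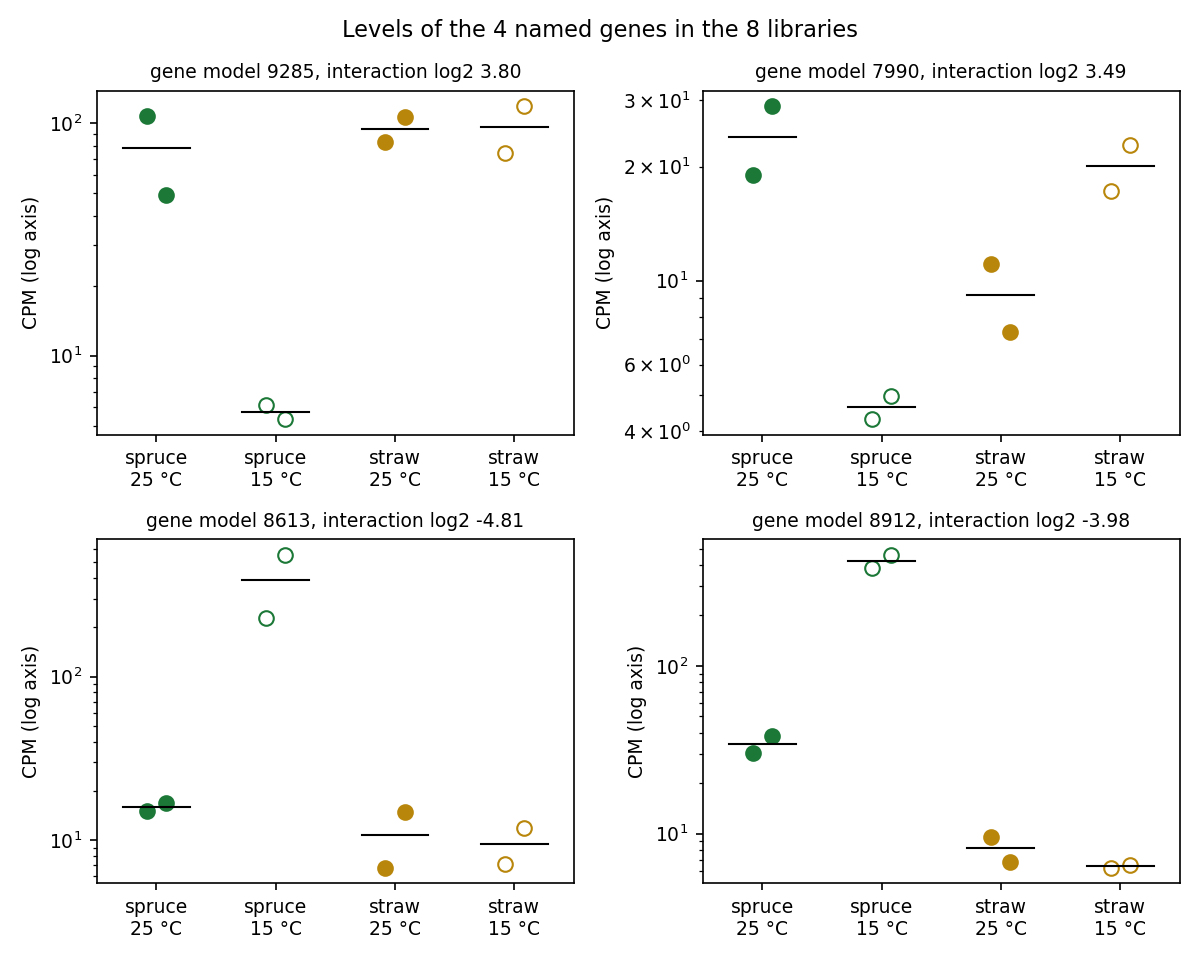
Points are the CPM of single libraries (log axis), filled at 25 °C and open at 15 °C, green on spruce and ochre on straw; bars are the means of 2 libraries. In the upper panels the libraries of spruce at 15 °C, at 4.31 to 6.11 CPM, are the lowest; in the lower panels, at 227 to 556 CPM, they are the highest.

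In all 28 genes the estimated temperature effects on spruce and on straw had opposite signs, against 42% of all tested genes. The small effects of genes 9285 and 8613 on straw, -0.03 and 0.20, each turned sign in some of the alternative settings. A large difference between the effects favours opposite signs, so this share describes the called genes and supports nothing. In the 23 genes the log2 fold change of 25 against 15 °C was 0.46 to 3.77 on spruce and -2.12 to -0.03 on straw, with medians of 1.40 on spruce and -1.13 on straw. In the 5 genes it was -4.61 to -0.76 on spruce and 0.20 to 1.53 on straw, with medians of -2.58 on spruce and 0.45 on straw. The effect on spruce was the larger of the pair in 15 of the 23 and 4 of the 5 genes, against 58.3% of all tested genes. Tested alone, the temperature effect on spruce was called in 15 of the 28 genes, against 0.628% of all tested genes. Of these, 11 rose at 25 °C (0.336% of all tested genes) and 4 fell (0.293%). The effect on straw was called by edgeR in 0 of the 28, against 0.0258% of all tested genes. These simple effects come from the libraries of the interaction test and are no independent evidence.

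**Figure D3:**
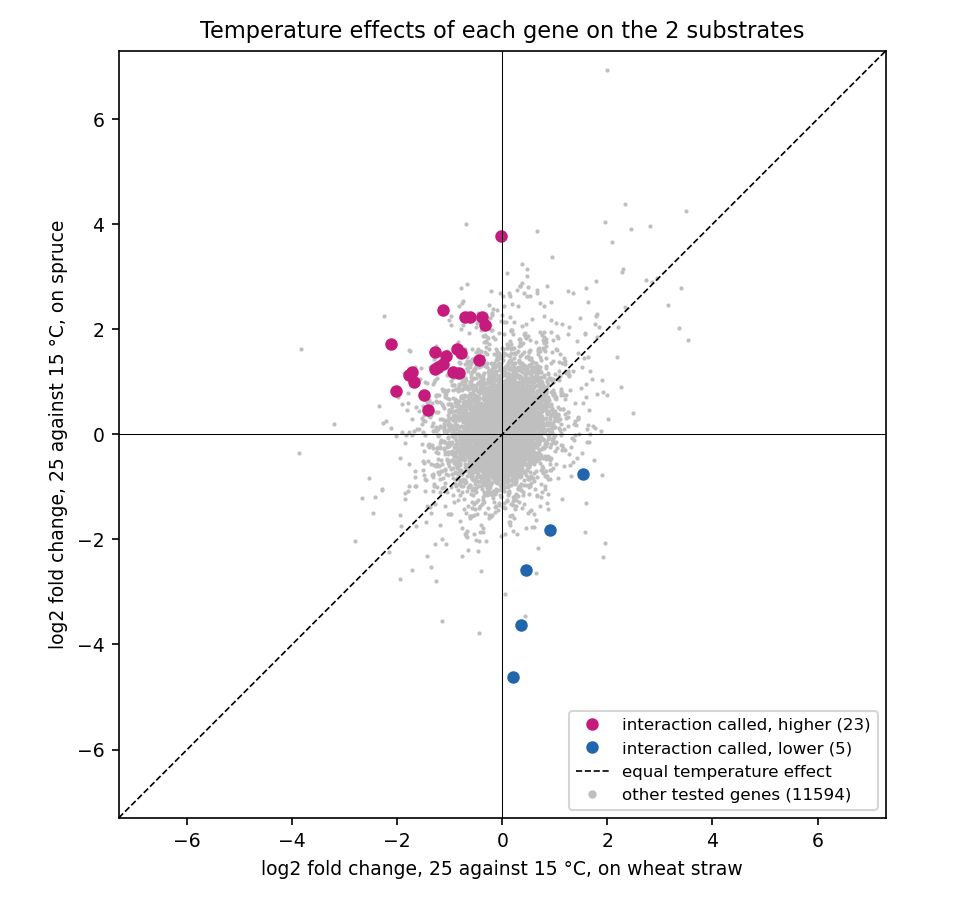
Each point is a tested gene, with its log2 fold change of 25 against 15 °C on straw (horizontal) and on spruce (vertical); the dashed line marks equal effects. The 23 genes called higher lie in the upper left quadrant, with medians of 1.40 on spruce and -1.13 on straw, and the 5 called lower lie in the lower right.

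The same 28 genes can be described by the substrate effect at each temperature. The difference of spruce against straw was called at 15 °C in 27 of the 28 genes, against 13.3% of all tested genes, and at 25 °C in 9, against 7.65%. At 15 °C, 5 of the 27 were higher on spruce (5.69% of all tested genes) and 22 lower (7.63%), and at 25 °C 5 were higher (4.22%) and 4 lower (3.43%). The exception at 15 °C was a gene with -0.03 between the substrates there and 2.22 at 25 °C. It had 610 and 507 CPM on spruce at 25 °C, 305 and 357 on spruce at 15 °C, 105 and 136 on straw at 25 °C, and 362 and 312 on straw at 15 °C; it is model 6 of scaffold 603 and is given because it was the only exception. Straw at 25 °C was its lowest group, as it was in 3 of the 23 genes (24.1% of all tested genes). The 2 genes called lower on spruce at both temperatures were model 7 of scaffold 361, with log2 fold changes of -1.84 at 25 °C and -3.69 at 15 °C, and model 25 of scaffold 1667, with -1.32 at 25 °C and -4.26 at 15 °C. On the untransformed CPM scale the difference of differences had the same sign in all 28 genes, against 93.8% of all tested genes. It also had the same sign in each of the 16 combinations of 1 library per group in all 28, against 2123 of 11622 tested genes; the test itself favours genes of this kind.

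Several called genes had neighbouring model numbers; models are numbered within each scaffold, and that the numbers follow position is taken from the identifiers alone. Of the 28, 11 shared a scaffold with another called gene, and all 11 had a positive interaction; they lay on 4 of the 21 scaffolds with a called gene. Of 51 tested models next to a called gene by model number, 8 were called (15.7%), against 0.241% of all tested genes. No coordinates are given in the files, so distances are not known. The strand setting of the counting is not given, so whether reads of neighbours overlapping on opposite strands were kept apart is not known. Whether closely similar neighbours shared reads was not tested. These scaffolds were picked after the values were seen and get no test.

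Scaffold 175 has 9 gene models, all tested, and each had a positive interaction, from 0.73 to 3.49 log2 units with a median of 2.11. Models 3, 6, 8 and 9 were called. For model 6, mean levels were 81.4 CPM on spruce at 25 °C, 26.4 on spruce at 15 °C, 70.2 on straw at 25 °C and 127 on straw at 15 °C. For model 8 they were 266 CPM on spruce at 25 °C, 117.6 on spruce at 15 °C, 183 on straw at 25 °C and 350.0 on straw at 15 °C. All 9 models had their lowest mean on spruce at 15 °C, and 7 of 9 their highest on straw at 15 °C. Over all tested genes these patterns were seen in 31.4% and 22.4%. The scaffold was picked after its values were seen, which favours such patterns. Summed over the 9 models, the level was 1045 and 1587 CPM on spruce at 25 °C and 719 and 728 on spruce at 15 °C. The sum was 1170 and 957 CPM on straw at 25 °C and 1586 and 1749 on straw at 15 °C. The spruce libraries at 15 °C were the lowest of the 8 in this sum too.

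On scaffold 1045, models 40 to 47 formed a stretch of 8 neighbours with interaction values of 0.90 to 4.71 and a median of 2.43. Models 40, 41 and 44 were called, and the other 5 each had an unadjusted p below 0.05 (7.86% of all tested genes). Model 45 had the highest value of the stretch, 4.71 ± 0.76 (SE), but missed the threshold (edgeR adjusted p = 0.0548); its means were 421 CPM on spruce at 25 °C, 26.0 on spruce at 15 °C, 1001 on straw at 25 °C and 1623 on straw at 15 °C. Summed over the 8 models, the level was 991 and 1947 CPM on spruce at 25 °C, 287 and 503 on spruce at 15 °C, 1753 and 1551 on straw at 25 °C, and 2635 and 3186 on straw at 15 °C. Spruce at 15 °C was the lowest group in 7 of these 8 models, against 31.4% of all tested genes. The exception was model 47, with a mean of 203 CPM there and 117 CPM on straw at 25 °C. Over the 32 tested models of the scaffold outside this stretch the median was 0.09. Of these models 5 had an unadjusted p below 0.05, against 7.86% of all tested genes. The scaffold also held shorter positive stretches at models 17 to 19 (1.31 to 3.06) and models 31 to 33 (1.29 to 3.235).

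On scaffold 171 the stretch was sharply bounded. Models 10, 11 and 12 had interaction values of 2.51, 2.56 and 2.05, of which the last was not called (edgeR adjusted p = 0.0787), while model 9 had -0.15 and model 13 had -0.53. The 3 models summed to 259.6 and 305 CPM on spruce at 25 °C and 102 and 120.1 on spruce at 15 °C, against 304 and 201 on straw at 25 °C and 495 and 548 on straw at 15 °C. On scaffold 719, models 3 and 4 had values of 2.85 and 2.41 and were called, with model 2 at 1.44 and model 5 at 0.67 beside them. All 9 models of scaffold 719 had a positive value, the lowest being 0.08 at model 6. Spruce at 15 °C was the lowest group for each of models 10 to 12 of scaffold 171 and models 1 to 5 of scaffold 719. Over all tested genes it was the lowest in 31.4%.

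**Figure D4:**
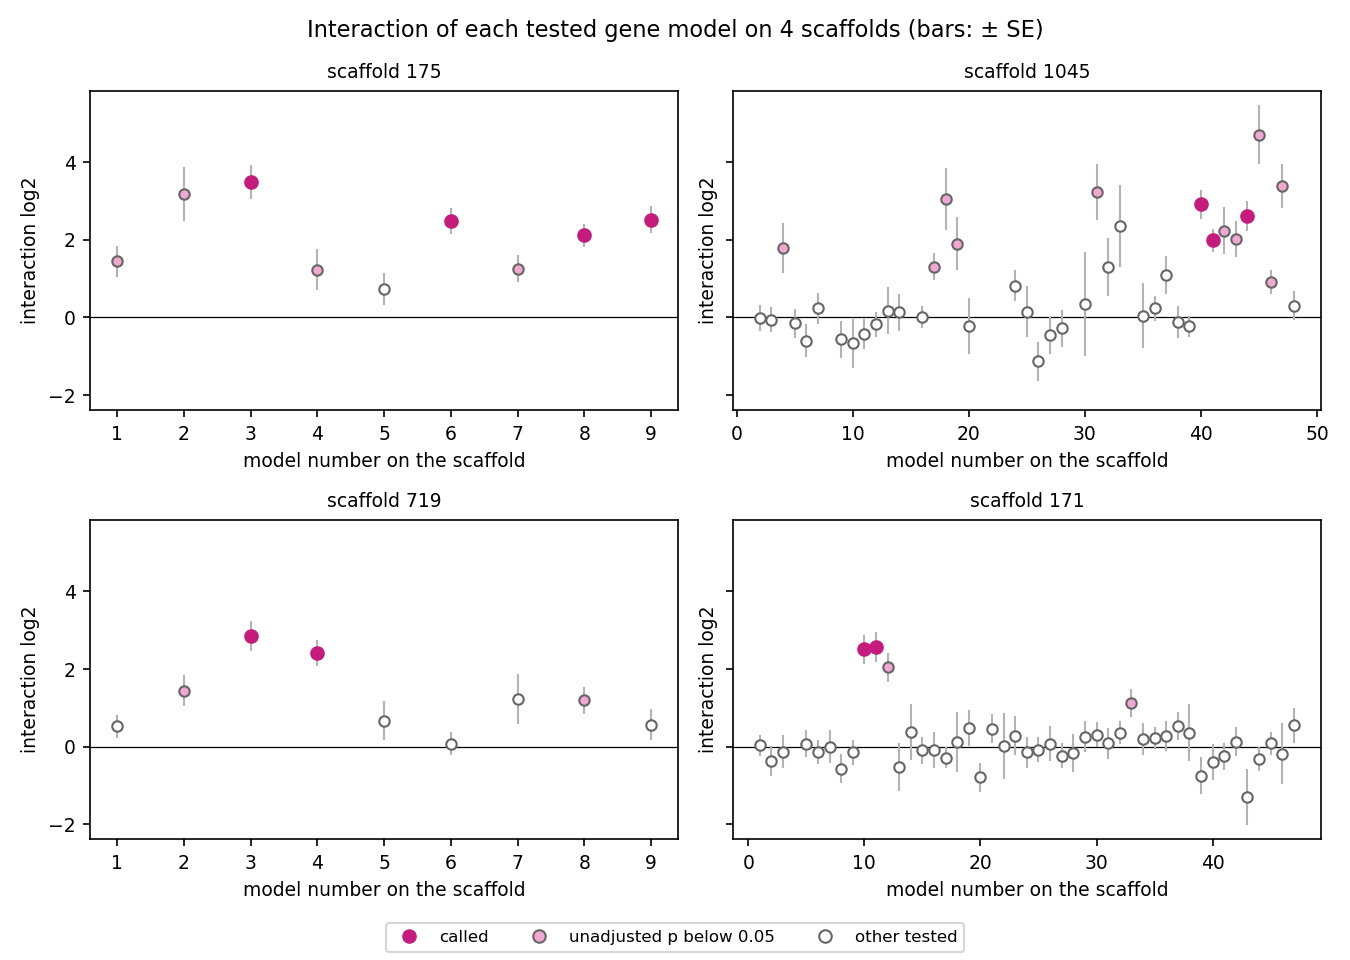
Interaction log2 of each tested gene model (vertical, bars ± SE) by its model number on the scaffold (horizontal) for the 4 scaffolds with 2 or more called genes; filled dark points were called. Scaffold 175 is positive throughout, at 0.73 to 3.49, and so is scaffold 719, at 0.08 to 2.85. On scaffold 171 models 10 to 12 stand at 2.05 to 2.56 while model 9 has -0.15 and model 13 has -0.53.

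Across the genome, 88 stretches of at least 3 consecutive tested models had all values above 0.5 log2 units and 30 had all values below -0.5. The positive stretches held 325 models and the negative ones 95. The longest positive stretch was the 9 models of scaffold 175 and the next the 8 of scaffold 1045, while the longest negative one had 5 models. Values above 0.5 made up 16.6% of tested genes and values below -0.5 made up 9.99%, so longer positive stretches also go with more positive values. Across genes, the Pearson r of the interaction between neighbouring models was 0.192 (Spearman 0.151, 10263 pairs). It was 0.099 at a distance of 2 models and 0.017 at a distance of 10. The points share the same 8 libraries and are not independent.

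Over all 11622 tested genes, the called ones included, most estimated interactions lay within 1 log2 unit of 0. Values at least that far from 0 were estimated for 1084 genes, and precision was limited. Of the variation in log2 CPM, 8.79% fell to the interaction, 12.1% to temperature, 53.1% to substrate and 26.0% to replicates. These shares are not corrected for replicate variation, which is part of each effect's share. Per degree of freedom, the mean square was 0.1775 for the interaction and 0.1314 for replicates, which have 4 degrees of freedom. With the variance between replicates taken off, the interaction had an SD across genes of 0.30 log2 units, which ranged from 0 to 0.499 when 1 library was left out (0 without library 2 of straw at 15 °C, 0.499 without library 1 of spruce at 25 °C). The median standard error was 0.39 for the interaction, against 0.28 for the temperature effect on spruce or on straw. Genes with an unadjusted p below 0.05 numbered 914 (7.86%), 631 higher (5.43%) and 283 lower (2.44%), a share of 69% higher that became 80% under scaling by library totals alone (790 higher, 197 lower), which moved the median log2 of all genes to 0.14.

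Many large values were not called. The smallest called value was 1.85, and 248 genes had values at least that far from 0, of which 220 were not called. Their median standard error was 0.69, against 0.38 for the called genes. The highest of all values, 5.47 ± 1.75 (SE; edgeR adjusted p = 0.353), was that of model 4 of scaffold 1112, singled out after its values were seen. It had 64.9 and 1335 CPM on spruce at 25 °C, 239.9 and 212 on spruce at 15 °C, 17.9 and 18.2 on straw at 25 °C, and 46.1 and 470.1 on straw at 15 °C. In 2 of its groups the libraries differed from each other by more than 10-fold. The libraries of spruce at 25 °C differed most over all genes: the replicate SD of log2 CPM was 0.46 on spruce at 25 °C, 0.31 on spruce at 15 °C, 0.36 on straw at 25 °C and 0.30 on straw at 15 °C. The pair of spruce at 25 °C carried 40.2% of the sum of squares between replicates.

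Most calls lay close to the threshold. Of the 28 genes, 27 had edgeR adjusted p-values between 0.0421 and 0.0495, so that 0 genes were called at 0.01 (914 had an unadjusted p below 0.05) and 62 at 0.1 (0.533%), of which 47 were higher (0.404%) and 15 lower (0.129%). DESeq2 on the same genes called 227 (1.95%), 160 higher (1.38%) and 67 lower (0.576%), among them all 28. DESeq2 gave 676 of the 11622 genes no adjusted p, and these are counted as uncalled in the percentages. Of its 160 higher genes, 132 had their lowest mean on spruce at 15 °C and 106 their highest on straw at 15 °C, against 31.4% and 22.4% of all tested genes. Of its 67 lower genes 50 had their highest mean on spruce at 15 °C, against 29.2%. DESeq2 chose these genes by the same difference of differences on the same libraries, which favours such patterns. The counts therefore describe its called genes and are no further evidence. With library 1 or 2 of spruce at 25 °C left out, 186 and 57 genes were called. With either library of spruce at 15 °C, either of straw at 15 °C or library 1 of straw at 25 °C left out, 0 were (edgeR; 635 to 833 had an unadjusted p below 0.05), and without library 2 of straw at 25 °C 1 was, gene 8912. The sign of the interaction held for each of the 28 genes in each of the 17 alternative settings in which it was tested. These settings reuse the counts by which the genes were chosen, which favours a held sign, so this is no further evidence.

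**Figure D5:**
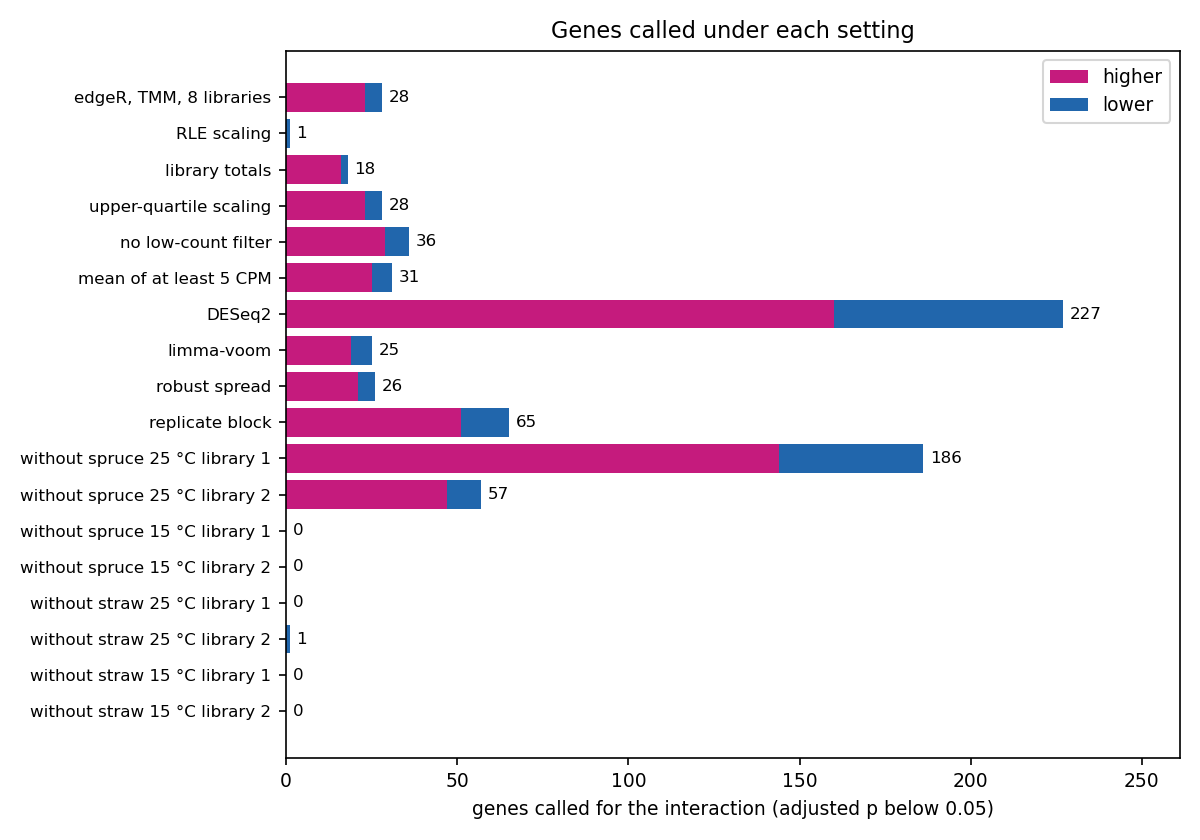
Bars give the number of genes called for the interaction (adjusted p below 0.05) under each setting, split into higher and lower; the top bar is the fit reported here. The count is 28 there, 1 with RLE scaling and 227 with DESeq2, and with 1 library left out it ranges from 0 to 186.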

How the data were processed

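RNA from T. pubescens mycelium was sequenced on an Illumina HiSeq platform, per the labels' protocols. The deposited files hold unnormalized counts per gene model, 1 file a library; Trimmomatic 0.36 and STAR 2.7.10a are named per the submitters' processing notes. Genome build, annotation and strand setting: not given in the sources used here. The 8 libraries were grouped by their titles. Counts were filtered with edgeR 4.0.16 (R 4.3.3; filterByExpr, minimum count 10), which kept at least 99.97% of each library's counts, TMM-scaled, and fitted with 1 mean per group over all 8 libraries (glmQLFit, glmQLFTest; 4 residual degrees of freedom), without a replicate block. The SE is the log2 value divided by the square root of F. Shares of variation used log2 CPM with a prior count of 2. Named genes are the 2 called genes with the largest value in each direction that reached a mean of 10 CPM in a group. Alternatives used DESeq2 1.42.0, limma 3.58.1 (voom), other scalings, filters and left-out libraries. Genes were filtered again in each fit with 1 library left out, so that 11757 to 11787 were tested there. Without a low-count filter 12590 genes were tested, and with the 5 CPM filter 9551. The tests were tried on simulated data. Libraries of a group differed by more than counting noise, with chi-square per degree of freedom of 29.8 to 89.1. They were therefore not duplicates of each other, but this cannot tell whether they were separate cultures. Stretches of genes, the settings at adjusted p below 0.01 and 0.1, and other items said to be picked later were chosen after seeing the data; the members and comparisons were chosen with earlier results of these data known.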

Additional observations from a re-analysis of the deposited data

Results flagged for a closer look

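The temperature effects on spruce and on straw differed, by the interaction test itself, for 28 genes (edgeR adjusted p below 0.05). Gene 9285 (log2 3.80) and gene 7990 (log2 3.49) had a higher temperature effect on spruce than on straw, and gene 8613 (log2 -4.81) and gene 8912 (log2 -3.98) a lower one. With 2 libraries per group, no single library was tested as standing apart within its group.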

How the results depend on the processing

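The count of 28 (23 higher, 5 lower) became 1 (0 higher, 1 lower) with RLE scaling, 18 (16 and 2) with library totals, 227 (160 and 67) with DESeq2, and 65 (51 and 14) with a replicate block. At adjusted p below 0.01 it was 0 (0 and 0), and below 0.1 it was 62 (47 and 15). All of these fits covered 11622 genes, of which DESeq2 gave 676 no adjusted p. Under RLE, 27 of the 28 genes moved to adjusted p-values of 0.0504 to 0.0558. Upper-quartile scaling, both filters, limma-voom and the robust spread gave 25 to 36. With 1 library left out, the count ranged from 0 to 186 (0 to 144 higher, 0 to 42 lower); the cause was not tested. With 1 library left out, the share of variation ranged from 8.26% to 12.2%. The corrected SD in these fits ranged from 0 (an estimate below 0 set to 0, without library 2 of straw at 15 °C) to 0.499. Over the other filters, scalings and prior counts tried for it, the share was 8.09% to 9.05% and the corrected SD 0.286 to 0.329. The opposite temperature signs held in 27 or 28 of the 28 genes. The exception was gene 9285 with library totals, without library 1 of straw at 25 °C and without library 2 of straw at 15 °C (0.00 to 0.34 on straw), and gene 8613 without library 2 of straw at 25 °C and without library 1 of straw at 15 °C (-0.48 and -0.13 on straw); with the 5 CPM filter 1 gene was not tested. Gene 9285 lost its call with RLE (adjusted p = 0.0519) and limma-voom (0.0523), gene 7990 with RLE (0.0504), and gene 8613 with RLE (0.0533) and library totals (0.053). The labels give the replicate number no shared origin. Deviations of same-numbered libraries correlated across genes at 0.314 to 0.438 among the groups other than straw at 25 °C, but at -0.194 to -0.105 between straw at 25 °C and each of them, so the number was not taken as a pairing. No interaction value of the 28 genes changed sign, which their choice by a test on the same counts favours. With 2 libraries per group, no value under 1.85 log2 units was called in the edgeR fit with TMM scaling.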

Other observations

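Stretches of neighbouring gene models without a called gene, picked after their values were seen, also had interaction values of 1 sign. On scaffold 1690, models 18 to 23 had values of 0.52 to 1.82 log2 units, and all 6 had their lowest mean on spruce at 15 °C and their highest on straw at 15 °C. On scaffold 1535, models 7 to 13 had values of 0.55 to 2.80, and all 7 had their lowest mean on spruce at 15 °C. Models 13 to 19 of scaffold 304 had positive values too, 0.60 to 1.69, but there spruce at 15 °C was the highest group for 4 of the 7 models and the lowest for 0. The longest stretch of negative values was models 8 to 12 of scaffold 203, at -2.18 to -0.66, and all 5 had their highest mean on spruce at 15 °C. In these 4 stretches 2 of 6, 3 of 7, 2 of 7 and 3 of 5 models had an unadjusted p below 0.05. The share over all tested genes was 7.86%. Over all tested genes spruce at 15 °C was the lowest group in 31.4% and the highest in 29.2%. Straw at 15 °C was the highest in 22.4%. Stretches were defined by their interaction values, which favours such counts, so the counts are no further evidence. Other stretches, such as models 29 to 35 of scaffold 1635 and models 1 to 5 of scaffold 895, are not described.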
